A study of Prunus persica with 84 samples.

Results

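Late chilling, from 400 h to 1000 h at 4 °C, was followed in floral buds of the peach genotype KV021779 (LP in the sample titles). The 12 libraries were those labelled LP and chill at 400, 600, 800 and 1000 h, 3 at each time, out of 84 libraries in the series. The comparison set LP buds chilled for 1000 h against LP buds chilled for 400 h, with 600 h and 800 h as steps between. The same contrast in the genotype John Boy, written JB, used 3 libraries at 1000 h and 3 at 400 h. All buds sat on cut shoots standing in water, and the chilled shoots were later moved to 22 °C until they started to bloom, for 28 d in LP and 20 d in JB. No shoots were kept without chilling for the same time, so cold and the time since cutting cannot be told apart. The origin of the replicates, from 1 tree or several, is not labelled, so p-values measure the spread between these libraries, which may be technical.

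Floral buds of peach are dormant in winter and need a period of cold, the chilling requirement, before warmth can bring them into bloom. Dormancy-associated MADS-box (DAM) genes encode transcription factors related to the flowering repressor SVP of Arabidopsis. They are known as repressors of bud growth, and several of them are known to decline as peach buds receive chilling. APETALA2 (AP2) genes of the euAP2 lineage encode another family of transcription factors, known from Arabidopsis to delay flowering and to be targets of the microRNA miR172. The series title names one such gene, and knowledge of the study, not the files, identifies it as PRUPE_6G242400.

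The 12 libraries held 10054484 to 14596833 counts. Those of 800 h held 10054484 to 10579091, below every library of 400 h and 600 h. Pearson correlations of log2 CPM (read counts scaled to library size) across genes were 0.990 to 0.994 over the 12 pairs of replicates, and 0.986 to 0.988 over the 9 pairs of a 1000 h and a 400 h library. No pair agreed within sampling noise, with a chi-square of 2.12 to 7.90 per degree of freedom. The scaling factor of LP 800 h replicate 2 was 1.00, against 0.918 to 0.967 in the other 11 libraries.

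Late chilling moved many genes by a little and few by much. Between 1000 h and 400 h, 4215 of 21168 tested genes passed an adjusted p of 0.05 in edgeR's quasi-likelihood test, which is 19.9%. Of these, 2135 were higher at 1000 h (10.1% of tested genes) and 2080 were lower (9.83%), and the median size of the called changes was 0.43 on the log2 scale. At least 2-fold apart were 168 genes higher at 1000 h (0.794%) and 374 lower (1.77%), so the larger changes were mostly falls. In the bulk tissue, fewer cells of a type and less RNA per cell cannot be told apart. With every replicate 1 left out 2435 genes passed, and with every replicate 2 left out 2119 did.

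The steps of 200 h were smaller than the whole. At 600 h against 400 h, 858 genes passed (4.05%), with 30 higher (0.142%) and 26 lower (0.123%) by at least 2-fold. At 800 h against 600 h, 1065 genes passed (5.03%), and the 2-fold changes were mostly rises, 118 (0.557%) against 40 falls (0.189%). At 1000 h against 800 h, 1163 genes passed (5.49%), and the 2-fold changes were mostly falls, 109 (0.515%) against 23 rises (0.109%). The calls of single steps rested on few libraries. Without replicate 2 of every group the 3 steps gave 108, 399 and 297 calls in time order, and without replicate 1 of every group they gave 156, 548 and 565.

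**Figure D1:**
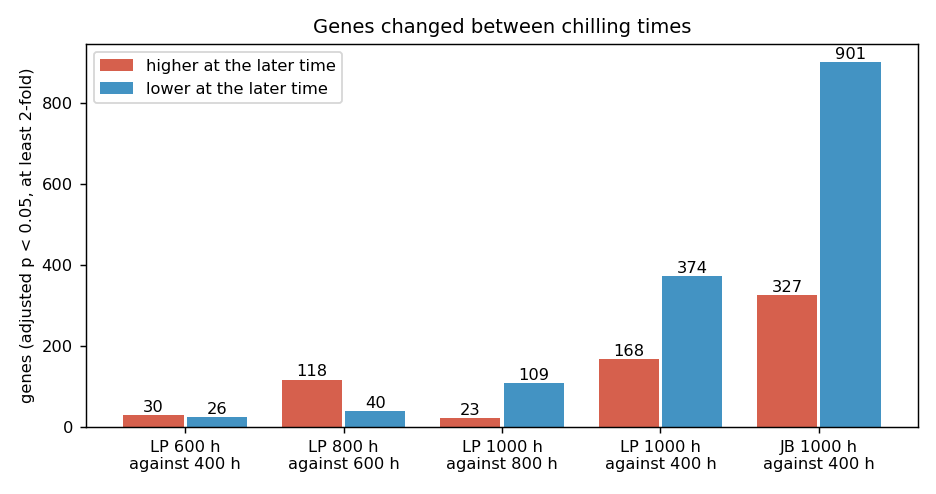
Number of genes (vertical axis) with an adjusted p under 0.05 and at least 2-fold apart, for the 3 steps, the whole of late chilling in LP, and the same contrast in JB; red bars are genes higher at the later time and blue bars are genes lower. In LP the step to 800 h holds 118 rises and the step to 1000 h holds 109 falls, while the whole interval holds 168 rises and 374 falls.

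The count table names 6 DAM genes. DAM copies stand close together in the genome and are similar in sequence, so reads may be shared among them and single values are uncertain. Of the 6, 3 passed as lower at 1000 h than at 400 h, PRUPE_DAM4, PRUPE_DAM5 and PRUPE_DAM6, beside 9.83% of all tested genes, and none passed as higher, beside 10.1%. The median log2 change of the 6 was -0.46, beside a median of 0.00 over all tested genes. The same 3 fell in JB, together with PRUPE_DAM1, and the median of the 6 in JB was -1.59 (18.7% of tested genes passed as lower in JB).

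PRUPE_DAM4 fell throughout late chilling. It had 651, 709 and 676 CPM at 400 h, 431, 475 and 479 at 600 h, 276, 244 and 318 at 800 h, and 174, 190 and 194 at 1000 h. Each time lay wholly below the one before it. The log2 change at 1000 h against 400 h was -1.87 ± 0.09 (SE, adjusted p = 1.9e-26), a 3.65-fold lower level. The steps gave -0.56 ± 0.09, -0.73 ± 0.09 and -0.59 ± 0.09 in time order, and all 3 passed, with adjusted p from 1.83e-05 for the first to 6.74e-09 for the second.

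PRUPE_DAM5 fell early within the interval. Its CPM were 65.5, 67.1 and 59.7 at 400 h, 30.5, 33.1 and 32.7 at 600 h, 30.3, 26.7 and 29.5 at 800 h, and 32.0, 18.7 and 24.9 at 1000 h. All 9 libraries from 600 h on lay below the 3 at 400 h, while the later times overlapped each other in part. The change at 1000 h against 400 h was -1.35 ± 0.22 (adjusted p = 2.24e-06), and the first step alone gave -0.998 ± 0.21 (adjusted p = 0.00188). The second step gave -0.15 ± 0.23 (adjusted p = 0.845) and the third -0.20 ± 0.24 (adjusted p = 0.716).

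PRUPE_DAM6 moved least of these 3. It had 90.1, 96.9 and 110 CPM at 400 h, 68.5, 73.1 and 80.3 at 600 h, 71.1, 61.5 and 77.0 at 800 h, and 72.4, 47.8 and 45.4 at 1000 h. The 400 h libraries lay above all the others, and the 3 later times overlapped. At 1000 h against 400 h the change was -0.85 ± 0.21 (adjusted p = 0.0018), and no single step passed. Without replicate 2 of every group the change was -0.77, with an adjusted p of 0.0828.

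The other 3 DAM genes did not pass. PRUPE_DAM1 had 0.620, 0.724 and 1.67 CPM at 1000 h and 0.583, 1.08 and 0.639 at 400 h, with a change of 0.47 ± 0.45 (adjusted p = 0.531). PRUPE_DAM3 had 6.71, 3.62 and 5.38 CPM at 1000 h and 6.26, 5.31 and 4.84 at 400 h, with a change of -0.07 ± 0.31 (adjusted p = 0.942). PRUPE_DAM2 had 0 to 4 counts per library at 1000 h and 0 to 6 at 400 h, and its change was 0.18 ± 0.91 (adjusted p = 0.954). The groups overlapped in all 3 genes. Counts were 35 to 86 per library for PRUPE_DAM3 and 6 to 23 for PRUPE_DAM1.

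The DAM genes that fell in LP fell more in JB, by the test of the difference for PRUPE_DAM4 and PRUPE_DAM5. PRUPE_DAM4 had 98.9, 129 and 135 CPM in JB at 1000 h and 630, 635 and 608 at 400 h, a change of -2.37 ± 0.10. The LP change minus the JB change was 0.50 ± 0.13 for PRUPE_DAM4 (adjusted p = 0.00341). PRUPE_DAM5 had 5.74, 13 and 11.2 CPM in JB at 1000 h and 42.4, 63.1 and 67.4 at 400 h, a change of -2.53 ± 0.25. At 1000 h all 3 LP libraries were above all 3 JB libraries for both genes, while at 400 h the genotypes overlapped for PRUPE_DAM5 and LP was already above JB for PRUPE_DAM4. The difference for PRUPE_DAM5 was 1.18 ± 0.34 (adjusted p = 0.0105).

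PRUPE_DAM6 changed by -1.61 ± 0.23 in JB, and the difference of 0.76 ± 0.31 did not pass (adjusted p = 0.0802). PRUPE_DAM1 fell in JB with a change of -1.57 ± 0.43 (adjusted p = 0.00276), and its difference was 2.04 ± 0.63 (adjusted p = 0.0176). Its counts were low, with 3 to 10 per JB library at 1000 h and 12 to 54 at 400 h. Without replicate 1 of every group the difference was 0.36 for PRUPE_DAM4, 0.89 for PRUPE_DAM5 and 1.35 for PRUPE_DAM1, and none of these passed. Over the 15 fits that left out a library or a replicate number, the difference passed in 14 for PRUPE_DAM4 (0.36 to 0.59), in 12 for PRUPE_DAM5 (0.89 to 1.53) and in 9 for PRUPE_DAM1 (1.35 to 3.08). PRUPE_DAM5 was also lost without JB 1000 h replicate 1 and without LP 1000 h replicate 1. PRUPE_DAM1 was also lost without replicate 3 of every group, and without JB 1000 h replicate 1, JB 400 h replicate 1, LP 1000 h replicate 3 or LP 400 h replicate 1.

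**Figure D2:**
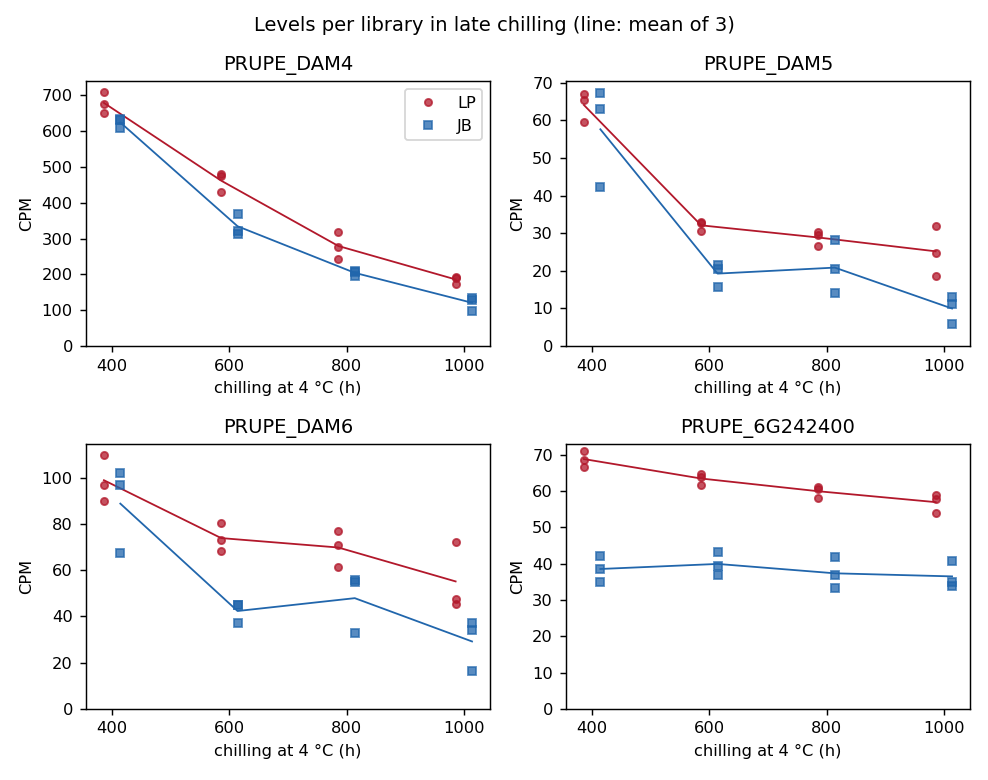
CPM of PRUPE_DAM4, PRUPE_DAM5, PRUPE_DAM6 and PRUPE_6G242400 (vertical axes, from 0) against hours at 4 °C, with 1 point per library, red circles for LP, blue squares for JB and lines through the means of 3. PRUPE_DAM4 steps down at every time in LP, PRUPE_DAM5 drops between 400 h and 600 h, and at 1000 h all 3 LP points of PRUPE_DAM4 (174 to 194) lie above those of JB (98.9 to 135).

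PRUPE_6G242400, the AP2 gene, changed little. It had 68.7, 71.2 and 66.6 CPM at 400 h, 61.8, 63.8 and 64.8 at 600 h, 60.7, 61.0 and 58.1 at 800 h, and 53.9, 59.0 and 57.9 at 1000 h. The 1000 h libraries all lay below the 400 h libraries. The log2 change was -0.27 ± 0.09 (adjusted p = 0.0283), a 1.21-fold lower level, and no single step passed. That call is at the edge of the threshold: leaving out a library or a replicate number gave adjusted p from 0.00468 to 0.238, with changes from -0.32 to -0.24. It was lost without LP 1000 h replicate 1 or 3, without LP 400 h replicate 1 or 2, and without replicate 1 or replicate 2 of every group.

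In JB, PRUPE_6G242400 had 40.8, 34.9 and 33.8 CPM at 1000 h and 42.2, 38.4 and 35.0 at 400 h, a change of -0.08 ± 0.10 (adjusted p = 0.553). The difference between the genotypes was -0.19 ± 0.14 and did not pass (adjusted p = 0.372). All 6 LP libraries were above all 6 JB libraries.

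The files do not pair the other identifiers with names, so few are given, chosen by size of change among calls with at least 5 CPM in the higher group and no overlap of replicates, with the chromosome that the identifier carries. The largest such rise was that of PRUPE_2G233500 on chromosome 2, which had 39.4, 46.1 and 46.2 CPM at 400 h, 57.1, 61.5 and 65.5 at 600 h, 130, 121 and 138 at 800 h, and 162, 180 and 174 at 1000 h. Every time lay above the one before it. The change was 1.97 ± 0.08 (adjusted p = 4.92e-32), of which the step to 800 h made up 1.08 ± 0.08. Before chilling PRUPE_2G233500 stood at 534 ± 2.0 CPM (SD, n = 3), and after 1 d at 22 °C it stood at 608 ± 13 CPM, so 400 h was its lowest sampled point in LP. In JB PRUPE_2G233500 went the other way, with 54.6, 61.2 and 59.5 CPM at 1000 h and 91.6, 91.6 and 83.7 at 400 h, a change of -0.61 ± 0.08 (adjusted p = 1.55e-09), and the difference was 2.58 ± 0.11 (adjusted p = 7.03e-30).

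The second rise was that of PRUPE_5G114500 on chromosome 5, with 6.09, 5.79 and 7.19 CPM at 1000 h and 0.947, 2.54 and 1.92 at 400 h. The groups did not overlap and the change was 1.84 ± 0.29 (adjusted p = 6.56e-07). No single step of PRUPE_5G114500 passed, and neither did its difference between the genotypes, 1.05 ± 0.45 (adjusted p = 0.0993).

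The largest falls among genes with at least 5 CPM at the higher end and no overlap were of PRUPE_8G068100 and PRUPE_8G068200, consecutive identifiers on chromosome 8, which may be similar copies that share reads. PRUPE_8G068100 had 8.30, 9.78 and 8.58 CPM at 400 h, 4.96, 5.09 and 5.19 at 600 h, 2.10, 1.89 and 2.25 at 800 h, and 0.620, 0.827 and 0.727 at 1000 h. It stood lower at each time with no overlap, and the change was -3.60 ± 0.39 (adjusted p = 1.41e-11), from 24 counts in all at 1000 h. PRUPE_8G068200 had 1.55, 0.724 and 1.24 CPM at 1000 h and 9.98, 11.6 and 8.49 at 400 h, with a change of -3.08 ± 0.39 (adjusted p = 3.13e-09). In JB PRUPE_8G068100 changed by -0.50 ± 0.21 (adjusted p = 0.0578) and PRUPE_8G068200 by -0.58 ± 0.22 (adjusted p = 0.0304). The differences between the genotypes were -3.10 ± 0.47 for PRUPE_8G068100 and -2.51 ± 0.47 for PRUPE_8G068200 (adjusted p = 6.35e-07 and 5.15e-05). After 1 d at 22 °C the LP levels were 61.7 ± 0.33 CPM for PRUPE_8G068100 and 40.1 ± 1.8 CPM for PRUPE_8G068200.

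The genes that moved most between neighbouring times often did not hold their level. At 600 h PRUPE_7G051200 had 10.5, 11.1 and 9.96 CPM, against 1.60, 3.70 and 3.19 at 400 h, a change of 1.91 ± 0.33 (adjusted p = 8.91e-05). At 1000 h it was back at 4.23, 4.65 and 3.05 CPM, a change of 0.48 ± 0.41 from 400 h (adjusted p = 0.472). PRUPE_7G051800, on the same chromosome, gave 1.89 ± 0.23 at 600 h against 400 h (adjusted p = 3.09e-08) and -0.20 ± 0.32 at 1000 h against 400 h (adjusted p = 0.733). PRUPE_6G006300 fell at 600 h by 1.27 ± 0.18 (adjusted p = 1.77e-06) and stood at -0.19 ± 0.16 by 1000 h (adjusted p = 0.470). PRUPE_2G257800 fell at 600 h by 1.22 ± 0.17 (adjusted p = 3.74e-07) and again at 800 h by 0.81 ± 0.20 (adjusted p = 0.00714). PRUPE_2G257800 ended at 4.23, 6.72 and 6.39 CPM at 1000 h, against 24.7, 25.4 and 26.1 at 400 h, a change of -2.12 ± 0.18. JB gave -2.09 ± 0.21 for PRUPE_2G257800, and the difference of -0.03 ± 0.30 did not pass. PRUPE_7G051200 did not pass at 600 h once every replicate 1 was left out (adjusted p = 0.0983).

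Among genes with at least 5 CPM and no overlap of replicates, PRUPE_2G031000 on chromosome 2 showed the largest fall of the step to 800 h. It had 46.4, 37.6 and 45.4 CPM at 800 h, against 119, 130 and 124 at 600 h, with no overlap and a change of -1.53 ± 0.13 (adjusted p = 2.27e-14). By 1000 h PRUPE_2G031000 stood at 22.7, 24.6 and 21.0 CPM, against 150, 166 and 155 at 400 h, a change of -2.79 ± 0.14 (adjusted p = 5.38e-26). In JB it had 441, 462 and 478 CPM at 1000 h and 694, 626 and 661 at 400 h, and the difference was -2.27 ± 0.19 (adjusted p = 9.45e-16). The step to 1000 h brought PRUPE_4G017100 to 6.51, 5.38 and 6.32 CPM, against 2.10, 1.89 and 2.35 at 800 h, a change of 1.52 ± 0.29 (adjusted p = 0.000215). It brought PRUPE_7G218000 to 8.98, 8.89 and 9.23 CPM, against 3.26, 4.37 and 3.68 at 800 h, a change of 1.26 ± 0.23 (adjusted p = 0.000145). Both were clear of overlap, and PRUPE_4G017100 did not pass once every replicate 1 was left out (adjusted p = 0.0529). PRUPE_8G068200 also fell at 800 h, by 1.37 ± 0.36 (adjusted p = 0.00996), a call lost in 4 of 9 fits with libraries left out.

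The 2-fold changes built up over the whole interval. For the 374 falls, the median share of the change already present was 37.0% at 600 h and 74.6% at 800 h. For the 168 rises it was 42.5% at 600 h and 72.8% at 800 h. The largest step of the 374 falls was the first in 121 genes, the second in 164 and the third in 89, and of the 168 rises in 72, 49 and 47. Group means were in time order over all 4 times for 264 falls (70.6%) and 88 rises (52.4%). These values describe the genes that the ends of the interval chose, and carry no test.

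Summed over the 374 falls, LP libraries of 400, 600, 800 and 1000 h held 9833 ± 349, 7129 ± 272, 4915 ± 316 and 3778 ± 189 CPM in that order (SD, n = 3 each). Summed over the 168 rises they held 1149 ± 65, 1529 ± 72, 2160 ± 151 and 2855 ± 64 CPM at the same times. Most of the genes were weakly expressed. A mean of at least 5 CPM at the higher end was reached by 178 of the 374 falls and by 56 of the 168 rises, and 50 CPM by 45 and 15. No count was found at 1000 h for 6 of the falls and at 400 h for 3 of the rises. The median log2 change was -1.48 over the falls and 1.36 over the rises, and -1.46 and 1.36 with those genes set at a floor of 3 counts over the group.

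**Figure D3:**
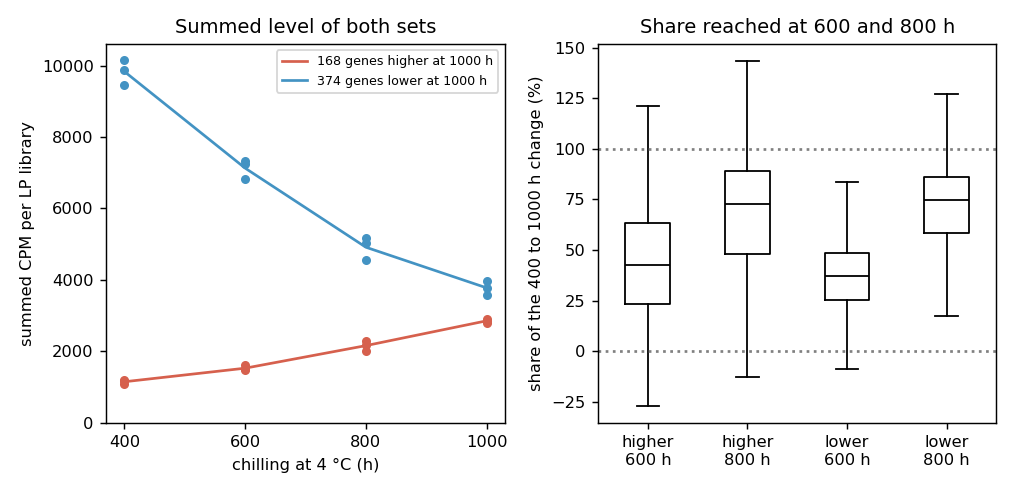
Left, summed CPM per LP library (points) and means (lines) of the 374 genes 2-fold lower (blue) and the 168 genes 2-fold higher (red) at 1000 h than at 400 h, against hours at 4 °C; right, the share of each gene's log2 change present at 600 h and 800 h in percent, as boxes of quartiles with medians and whiskers to 1.5 times the box. The medians at 600 h are 42.5% for rises and 37.0% for falls, and at 800 h 72.8% and 74.6%.

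The 2-fold falls of LP were largely falls in JB too, in libraries that chose none of them. Of the 374, 250 passed as lower at 1000 h than at 400 h in JB (66.8%), and 4 passed as higher. Over all tested genes, 18.7% passed as lower in JB and 16.3% as higher. At least 2-fold lower in JB were 168 of them, which is 44.9% of the LP falls and 18.6% of the 901 genes (4.26% of those tested) that were 2-fold lower in JB. Of the 168 rises, 43 passed as higher in JB (25.6%) and 16 as lower. The 21 that were 2-fold higher in JB make up 12.5% of the LP rises and 6.42% of the 327 genes (1.54% of those tested) that were 2-fold higher in JB. The median JB change was -0.97 over the LP falls and 0.41 over the LP rises, beside 0.00 over all tested genes.

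Across all 21168 genes the log2 changes of LP and JB had a Pearson correlation of 0.19, a description across genes, which are not independent replicates. Most of these genes did not pass in LP, and noise in their changes can lower this value. The SD of the changes was 0.598 in LP and 0.734 in JB. JB had 7421 calls (35.1%), and 4360 without replicate 1 of every group.

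The change itself was tested against JB. It differed between the genotypes for 3634 genes (17.2%), with 517 more positive in LP (2.44%) and 219 more negative (1.03%) by at least 2-fold. Over the 517, the median log2 change was 0.33 in LP and -1.33 in JB. Over the 219, it was -0.57 in LP and 0.88 in JB. Both medians are of genes chosen by these same libraries. The 3634 calls became 1071 without replicate 1 and 1486 without replicate 2 of every group.

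For the difference, the minimum of 5 CPM could be met in either genotype, and overlap was judged between 1000 h and 400 h in LP alone. PRUPE_2G045000 and PRUPE_4G109600, given below, met the minimum in JB only. Among the genes so chosen, the 2 largest positive differences were on chromosome 2. PRUPE_2G265000 on chromosome 2 had 6.71, 5.79 and 6.54 CPM in LP at 1000 h and 2.69, 2.31 and 2.28 at 400 h, a change of 1.38 ± 0.19. In JB it had 11.6, 17.4 and 16.6 CPM at 1000 h and 113, 99.4 and 115 at 400 h, a change of -2.85 ± 0.11, and the difference was 4.23 ± 0.22 (adjusted p = 2.42e-25). LP thus lay below JB at both times while moving the other way. PRUPE_2G045000, also on chromosome 2, had 1.65, 0.931 and 2.18 CPM in LP at 1000 h and 0.437, 0.616 and 0.365 at 400 h, against 2.45, 1.91 and 1.85 CPM in JB at 1000 h and 16.2, 16.5 and 17.1 at 400 h. The genotypes overlapped at 1000 h and not at 400 h. The difference of PRUPE_2G045000 was 4.76 ± 0.51 (adjusted p = 4.26e-11), and the LP counts behind it were 9 to 30 per library at 1000 h and 4 to 8 at 400 h.

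PRUPE_4G109600 on chromosome 4 had no count in LP at 1000 h or at 800 h, and 6, 3 and 1 counts at 400 h. In JB it had 8.10, 10.7 and 9.35 CPM at 1000 h and 8.08, 9.51 and 7.85 at 400 h. At 1000 h LP was at least 103-fold lower than JB, and LP at 1000 h was at least 2.79-fold lower than LP at 400 h, both with the empty group set at 3 counts in all. Its difference passed (adjusted p = 0.00364), but it was lost in 3 of 15 fits with libraries left out, with adjusted p up to 0.144.

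**Figure D4:**
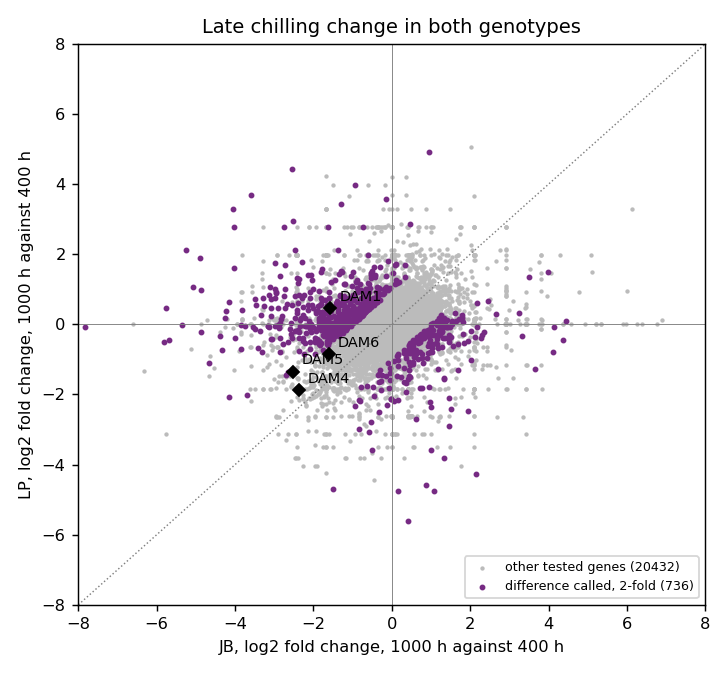
Log2 fold change at 1000 h against 400 h in LP (vertical axis) and JB (horizontal axis) for the 21168 tested genes; purple points are the 736 genes whose change differed between the genotypes by at least 2-fold, black diamonds are 4 DAM genes, and the dotted line marks equal change. PRUPE_DAM4 (-1.87 in LP, -2.37 in JB), PRUPE_DAM5 and PRUPE_DAM6 lie in the lower left of the plot, and PRUPE_DAM1 (0.47 in LP, -1.57 in JB) lies above them.

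The fate of the 2-fold sets outside late chilling was read in other LP libraries. At 200 h against 0 h of chilling, 145 of the 374 late falls passed as lower (38.8%) and 60 as higher (16%), beside 23% lower and 23.3% higher over all tested genes. Of the 168 late rises, 35 passed as higher at 200 h (20.8%) and 45 as lower (26.8%). At 4 d against 1 d at 22 °C, 165 of the late falls passed as higher (44.1%) and 40 as lower, beside 14.7% higher and 13.5% lower over all tested genes. At least 2-fold higher at 4 d were 114 of them, which is 30.5% of the late falls and 13.4% of the 853 genes (4.03% of those tested) that were 2-fold higher at 4 d. Of the late rises, 41 passed as higher at 4 d (24.4%) and 18 as lower.

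The level of the late falls after the move to 22 °C was also read, as group medians with no test. Relative to the 400 h mean of the same genotype, the median log2 level of the 374 genes in LP was -1.33 ± 0.03 at 1000 h, -1.02 ± 0.02 after 1 d at 22 °C, -0.43 ± 0.09 after 4 d and 0.05 ± 0.01 after 8 d (SD over 3 libraries). In JB the same genes stood at -0.92 ± 0.05 at 1000 h, 0.24 ± 0.03 after 1 d, 0.15 ± 0.02 after 4 d and 0.33 ± 0.03 after 8 d. With libraries left out of the choice of genes, the LP median of the falls ran from -1.17 to -0.89 at 1 d. At 8 d it ran from -0.020 to 0.093, and the SD do not cover this. Over all 2080 called falls, with no fold minimum, the LP median at 1 d was -0.26. The 2080 include smaller falls (the median size of all called changes was 0.43), so -0.26 and -1.02 start from unlike levels at 1000 h. The LP libraries of 400 h and 1000 h chose these genes, so the LP values are scaled to a level that was part of the choice while the JB values are not, and the distance between the genotypes is in part set by it. For the 168 late rises, scaled in the same way, the LP median was 1.22 ± 0.01 at 1000 h. At 22 °C it was 0.79 ± 0.05 after 1 d, 0.98 ± 0.08 after 4 d, 0.85 ± 0.09 after 8 d, 1.05 ± 0.08 after 12 d, 1.46 ± 0.06 after 16 d, 1.29 ± 0.04 after 20 d, 1.29 ± 0.09 after 24 d and 0.82 ± 0.20 after 28 d. In JB the same genes had a median of 0.33 ± 0.14 at 1000 h, 0.76 ± 0.04 after 1 d, 0.91 ± 0.07 after 4 d, 0.80 ± 0.13 after 8 d, 0.70 ± 0.21 after 12 d, 0.66 ± 0.05 after 16 d and 0.22 ± 0.07 after 20 d.

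One group of genes was higher at 800 h than at 600 h and at 1000 h, a set picked after the values were seen. The level at 400 h was not part of the choice. It holds 74 genes that were at least 2-fold higher at 800 h than at 600 h and at least 2-fold lower at 1000 h than at 800 h. They are 62.7% of the 118 rises to 800 h and 67.9% of the 109 falls to 1000 h, and 1 gene did the opposite. Both steps use the 800 h libraries, so these shares are a description. Among the 74, 1 gene was 2-fold changed at 1000 h against 400 h, and 47 had at least 5 CPM at 800 h. Over all tested genes 0.794% were 2-fold higher and 1.77% 2-fold lower at 1000 h against 400 h. The count of 1 therefore does not set the 74 apart from other genes. Leaving out libraries gave 54 to 75 such genes.

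PRUPE_3G229800 on chromosome 3 belongs to it, with 0.947, 0.693 and 0.456 CPM at 400 h, 1.26, 0.636 and 0.936 at 600 h, 13.7, 13.1 and 15 at 800 h, and 1.24, 1.24 and 1.16 at 1000 h. The step up was 3.88 ± 0.20 (adjusted p = 8.27e-26) and the step down -3.52 ± 0.19 (adjusted p = 4.7e-24). PRUPE_3G164200, on the same chromosome, had 78, 74 and 76 counts at 800 h, 3, 4 and 0 at 600 h, and none at 1000 h. The step up was 5.26 ± 0.36 for PRUPE_3G164200 (adjusted p = 7.49e-19). At 1000 h it was at least 85.8-fold lower than at 800 h, with 1000 h set at 3 counts in all. Both genes were far above either neighbour in every 800 h library. In JB PRUPE_3G229800 fell, with 4.99, 4.38 and 6.23 CPM at 1000 h and 54.3, 50.6 and 46.7 at 400 h.

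The median log2 level of the 74 genes, relative to LP at 400 h, was 1.58 to 1.60 over the 3 libraries at 800 h, and LP 800 h replicate 2, with its higher scaling factor, did not stand apart. It was -0.21 ± 0.11 at 600 h and -0.17 ± 0.04 at 1000 h. In libraries that did not choose them, the same genes stood at 3.13 ± 0.16 before chilling, 1.01 ± 0.03 at 100 h and 0.86 ± 0.11 at 200 h in LP, and between 0.36 ± 0.04 and 1.17 ± 0.02 at 22 °C. In JB, relative to its own 400 h, they stood at -1.16 ± 0.14 at 600 h, -2.04 ± 0.09 at 800 h and -1.72 ± 0.06 at 1000 h. The labels give no time of day or sampling date for the 800 h shoots, and whether either moved with these genes was not tested.

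**Figure D5:**
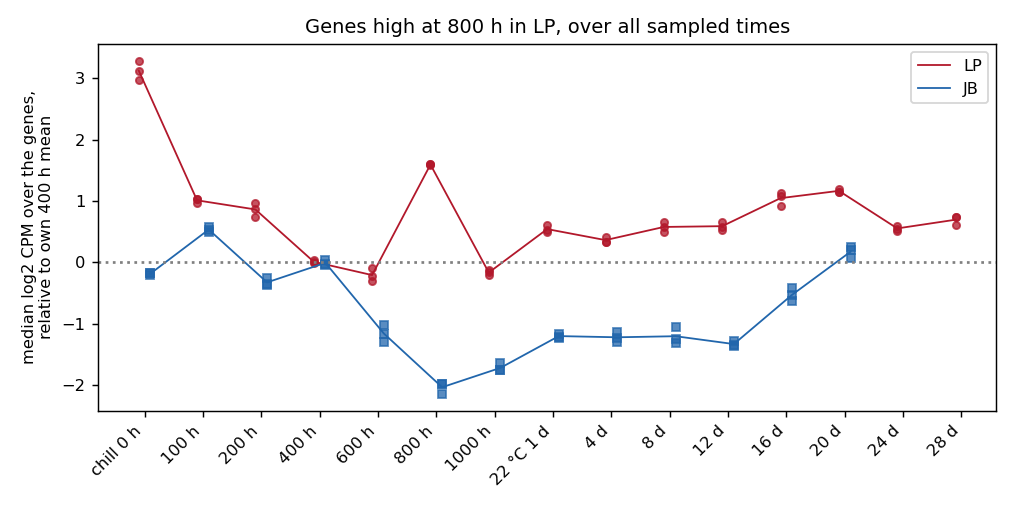
Median log2 CPM over the 74 genes high at 800 h in LP, relative to the mean of the same genotype at 400 h, for every sampled time in chilling and at 22 °C, with 1 point per library and lines through the means of LP (red circles) and JB (blue squares). In LP the 3 points at 800 h lie at 1.58 to 1.60 between medians of -0.21 at 600 h and -0.17 at 1000 h, and in JB the 800 h points are the lowest, at -2.04 on average.

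By position, the 2-fold changes were spread over all 8 chromosomes that the identifiers name. The share of tested genes changed 2-fold ran from 2.25% on chromosome 1 (exact 95% binomial interval 1.85 to 2.71) to 3.26% on chromosome 8 (2.55 to 4.11). These intervals take genes as independent, which neighbouring genes may not be, and they overlap. Both lists held neighbours by identifier, such as PRUPE_8G068100 and PRUPE_8G068200 among the 374 falls, and PRUPE_6G307700 and PRUPE_6G307800 among the 168 rises. How often tested genes in lists of these sizes are neighbours was not worked out, so no share is given. Neighbouring genes can be similar copies that share reads, and whether they did was not tested.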

How the data were processed

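Floral bud RNA was sequenced from TruSeq Stranded mRNA libraries, per the labels' protocols. The submitters' processing notes name STAR 2.6.0, edgeR, Trimmomatic and FastQC 0.11.9. The authors deposited unnormalized counts per gene for 26879 genes in 84 libraries, with 8021919 to 26346177 counts each. How reads were counted, on which genome build and annotation, and with which strand setting is not given in the sources used here, so reads of overlapping or antisense genes may not be separated.

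After filterByExpr by group 21168 genes remained, and the 5711 genes left out carried 0.028% of reads. A single edgeR 4.0.16 model (glmQLFit, glmQLFTest, TMM scaling, limma 3.58.1, R 4.3.3) with 1 mean per group covered all 84 libraries. Benjamini-Hochberg adjustment ran over the 21168 genes of each comparison, and calls were made at 0.05. CPM came from TMM-scaled totals, and log2 CPM had a prior count of 2. Where all libraries of a group were at 0, folds were taken against 3 counts in all. Such floors and the binomial intervals cover counting error only. Alternatives were DESeq2 1.42.0, its size factors in edgeR, no filter, fits of only the compared groups, a replicate block, a 2-fold minimum, a linear trend, and leaving out libraries or replicate numbers.

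Beside PRUPE_6G242400 and the DAM genes, the 2 largest rises and 2 largest falls per comparison were named among calls with at least 5 CPM in the higher group and no overlap of replicates. For the difference between the genotypes, the 5 CPM could be reached in either genotype, and overlap was judged in LP alone. The samples, gene lists and tests were chosen with earlier results of these data known. The reference gene table matched 0 identifiers, so lists by gene name (cold acclimation, hormones, cell cycle, clock, floral organ markers) could not be filled and the tissue label was not checked against markers.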

Additional observations from a re-analysis of the deposited data

Results flagged for a closer look

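The change from 400 h to 1000 h passed a test of difference between LP and JB for 3634 genes, and for 14 of the named genes (values are the LP change minus the JB change on the log2 scale, adjusted p from edgeR's quasi-likelihood test). Among the DAM genes the difference was 2.04 for PRUPE_DAM1 (adjusted p = 0.0176, kept in 9 of 15 fits with libraries left out), 0.50 for PRUPE_DAM4 (adjusted p = 0.00341) and 1.18 for PRUPE_DAM5 (adjusted p = 0.0105, kept in 12 of 15). All 3 differences are positive, so the level fell less in LP or, for PRUPE_DAM1, did not pass as changed.

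Rises in LP beside falls in JB stood behind the differences of PRUPE_2G233500 (2.58), PRUPE_2G045000 (4.76) and PRUPE_2G265000 (4.23). PRUPE_7G051200 (3.57), PRUPE_7G051800 (1.13) and PRUPE_3G229800 (4.02) fell in JB and did not pass in LP between 400 h and 1000 h. PRUPE_6G006300 (-1.47) rose in JB and did not pass in LP.

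PRUPE_8G068100 (-3.10), PRUPE_8G068200 (-2.51) and PRUPE_2G031000 (-2.27) fell in LP by more than their change in JB, where PRUPE_8G068100 did not pass. PRUPE_4G109600 gave -4.89 in the fit, a value that depends on the prior count, since LP had no count at 1000 h. Adjusted p for these 4 ran from 9.45e-16 for PRUPE_2G031000 to 0.00364 for PRUPE_4G109600.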

How the results depend on the processing

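The 2-fold minimum was applied to counts of calls, not to single genes. Under it PRUPE_6G242400 (-0.27) and PRUPE_DAM6 (-0.85) would lose their calls at 1000 h against 400 h. PRUPE_DAM4 would lose its call in the difference from JB (0.50). Outside this minimum and the fits that left out libraries, no alternative changed the direction or the call of any named gene in the comparison that named it. The same held for the DAM genes and PRUPE_6G242400 at 1000 h against 400 h and in the difference from JB, wherever a value was given. Counts of calls stayed within 1.5 times except under the 2-fold minimum, which left 542 genes for LP 1000 h against 400 h, 56 for 600 h against 400 h, 158 for 800 h against 600 h, 132 for 1000 h against 800 h, 1228 for JB, 736 for the difference, 2322 for LP 200 h against 0 h and 1140 for LP 4 d against 1 d at 22 °C. Without a fold minimum, the rises had reached 56.2% of their change at 800 h, and the share called per chromosome was 19.9, 19.7, 19, 20.7, 21.6, 20.1, 19.7 and 19% for chromosomes 1 to 8. The near-even split of all calls at 1000 h against 400 h (2135 higher, 2080 lower) turned to 1802 and 2072 with no filter, 2152 and 2247 with only the groups compared, and 2177 and 2320 under the linear trend. At 1000 h against 800 h it turned from 653 higher and 510 lower to 567 and 766 with only the groups compared. The causes were not tested.

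Replicate numbers did not pair the libraries: same-numbered libraries of 1000 h and 400 h had correlations of deviations from -0.083 to 0.041. With the replicate block, 4152 genes passed, against 4215 without it.

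Leaving out libraries or replicate numbers gave 2119 to 3704 calls for LP 1000 h against 400 h, 108 to 815 for 600 h against 400 h, 399 to 849 for 800 h against 600 h, 297 to 1285 for 1000 h against 800 h, 4360 to 7022 for JB, 1071 to 4012 for the difference, 7487 to 9209 for LP 200 h against 0 h, 3853 to 5254 for LP 4 d against 1 d, and 37.8 to 51.3% for the share of the rises at 600 h. The uncalled changes of PRUPE_DAM1 (-0.31 to 0.99), PRUPE_DAM2 (-0.73 to 2.09) and PRUPE_DAM3 (-0.26 to 0.11) at 1000 h against 400 h, and the difference of PRUPE_DAM3 (-0.030 to 0.69), changed sign. PRUPE_DAM6 passed in the difference in 3 of 15 such fits. The median level of the late falls in LP, over the sets that such fits chose, ran from -1.17 to -0.89 at 1 d. At 8 d it ran from -0.020 to 0.093. For the late rises it ran from 0.71 to 0.98 at 1 d and from 0.73 to 0.98 at 8 d. Over all called falls, which include smaller ones, the median at 1 d was -0.26, beside -1.02 for the 2-fold falls. PRUPE_DAM2 had at most 6 counts in a library at 1000 h and 400 h.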
